A study of Mus musculus with 12 samples.

Results

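PKO-6 is a clone of mouse embryonic fibroblasts (MEFs) in which *Pnpt1*, the gene that encodes the exoribonuclease PNPase, was deleted, and its RNA was compared here with that of TM6, the MEF line from which it was made. The samples were taken by the line that their labels name, which gave 6 of the 12 libraries of the series, 3 of PKO-6 and 3 of TM6, and the other knockout clone, PKO-1, was not pooled with PKO-6. The study sequenced total RNA depleted of ribosomal RNA to ask how loss of PNPase alters gene expression. TM6 MEFs are of strain C57BL6/J, were immortalized with SV-40 large T antigen, carry the neo-flox/neo-flox genotype at *Pnpt1* and were otherwise untreated. PKO-6 MEFs have the same strain and genotype and were treated with an adenovirus that expresses Cre recombinase, after which a colony was grown from a single cell. PKO-1 is a second clone made in the same way, and rho0 MEFs are a TM6 line cleared of mitochondrial DNA (mtDNA) with ditercalinium, a DNA-binding drug, and also grown from a single cell colony. Both entered the fit that set the spread of each gene and were otherwise used only to show where PKO-6 did or did not stand apart. Medium with uridine at 50 µg/mL was given to every line, since cells without a respiratory chain cannot make their own pyrimidines. PKO-6 is 1 clone, so the effect of the deletion and features of the founding cell or of its later growth cannot be told apart, and the p-values below measure the spread between cultures of a line. The study also reports that its knockout clones had lost mtDNA and did not respire. Loss of PNPase and loss of mtDNA thus cannot be told apart in PKO-6 against TM6.

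TM6 replicates 1, 2 and 3 held 66533418, 60589501 and 56696100 estimated counts, and PKO-6 replicates 1, 2 and 3 held 67991378, 56466883 and 53260426. *Rn45s*, the precursor of ribosomal RNA, took 17.09%, 15.3% and 13.65% of these totals in TM6 and 17.78%, 19.15% and 12.2% in PKO-6, so the share left after depletion overlapped between the lines. Values are given below as normalized counts, which are counts divided by the scaled size of the library, in the order of replicates 1, 2 and 3. A gene was called a differentially expressed gene (DEG) with an adjusted p below 0.01 in edgeR's quasi-likelihood test and an absolute log2 fold change above 0.5, over the 14026 genes that passed the filter on low counts, and "rose" and "fell" are used for such genes. The table holds 0 genes of the mitochondrial chromosome, so RNA made from mtDNA was not analysed here.

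PNPase is a mitochondrial enzyme that degrades RNA from its end and takes part in the processing of mitochondrial transcripts and in the import of small RNAs. Respiration depends on subunits encoded by mtDNA, and when it fails, cells commonly answer through the transcription factor ATF4, which raises genes of amino acid synthesis and transport. *Pnpt1* lies on the plus strand of chromosome 11 at 29130751 to 29161828 of GRCm38 and has 28 exons. Cre removes exon 2, a coding exon of 61 bases, shown here because its loss defines the clone (GENCODE M21, GRCm38, plus strand, chr11:29132845-29132905).
*Pnpt1* exon 2: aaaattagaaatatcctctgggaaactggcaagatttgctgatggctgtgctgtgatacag
Counts cover the whole gene, so RNA made from the remaining exons was still counted. *Pnpt1* had 2832, 3242 and 3319.5 normalized counts in TM6 and 1897, 1720.4 and 2214 in PKO-6. Every PKO-6 library lay below every TM6 library, and *Pnpt1* fell with a log2 fold change of -0.69 (standard error 0.084, edgeR adjusted p = 5.53e-06). The PKO-1 libraries held less, at 1254, 1191 and 1276, and PKO-6 exceeded them with a log2 fold change of 0.65 in the direct test of the clones (edgeR adjusted p = 1.92e-05).

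The samples were then set against markers of the cell type that their labels name. Of 13 fibroblast markers, 12 passed the filter, 2 of which rose and 6 fell, and the summed level of the 13 in transcript units scaled for length and library size (TPM) was 6589, 6775 and 6605 in TM6 and 2821, 3199.8 and 3004 in PKO-6, with *Vim*, an intermediate filament gene, as the most abundant. The sum was lower in every PKO-6 library, while *Twist1*, a mesenchymal factor, had 2437, 2334 and 2229 normalized counts in TM6 and 2434, 2769 and 2195 in PKO-6 and *Prrx1*, another, had 11948, 13334 and 13061 and 11253, 11215 and 12844. Both overlapped between the lines. *Thy1*, a surface protein of many fibroblasts, had 4, 0 and 5 counts in TM6 and 0 in each PKO-6 library, so this marker was near absent from both lines. Among the markers of other cell types, the epithelial list of 9 genes summed to 45.5, 48.5 and 48.3 TPM in TM6 and 74.5, 81.1 and 79.7 in PKO-6, mostly from the keratin *Krt19*. The epithelial genes *Epcam* and *Krt19* rose and *Krt18* fell, while *Cdh1*, which defines epithelial cells, had 8, 6 and 7 counts in TM6 and 10 in each PKO-6 library and did not pass the filter, and *Krt5*, *Krt14* and *Cldn3* had at most 1 count in any of the 6 libraries. Leukocyte markers summed to 9.12, 8.15 and 8.31 TPM in TM6 and 12.2, 10.9 and 11.7 in PKO-6, with *Cd14* as the most abundant and the defining genes *Ptprc* and *Adgre1* at 0 to 3 counts per library. *Cd14* had a mean of 5.71 TPM in TM6 and 6.23 in PKO-6 and was not called, while the macrophage marker *Cd68* had 2.73 and 5.29 and rose by 1.02 (edgeR adjusted p = 0.0002). Endothelial markers summed to at most 1 TPM and skeletal muscle markers to at most 0.67 TPM in each library. Neural markers, mostly *Nes*, summed to 55.7, 60.6 and 62.1 TPM in TM6 and 45.5, 47.7 and 55.7 in PKO-6, adipocyte markers to 10.3, 11.7 and 11.1 and 4.98, 5.39 and 6.44, and cartilage markers to 10.9, 10.5 and 10.6 and 5.21, 5.31 and 6.14. Of 5 neural markers tested, only *Sox2* was called. It fell, with 81, 90 and 69 counts in TM6 and 1, 0 and 0 in PKO-6. The part of these markers in the results below was not tested, and in bulk RNA fewer cells of a type and less RNA per cell cannot be told apart.

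PKO-6 differed from TM6 in 5799 DEGs, 41.3% of the genes tested, with 3077 higher (21.9%) and 2722 lower (19.4%). These shares of all genes tested are the background for the counts of called genes in each list below. The median absolute log2 fold change over all genes was 0.457 and the median was 0.01, so the list medians below are read against a centre near 0. The change exceeded 2 on the log2 scale in 1406 DEGs, 806 of them higher and 600 lower. Libraries of the lines did not overlap in 5793 DEGs, against 10089 of all genes tested (71.9%). In 155 DEGs that rose, every TM6 library was at or below the floor of 3 counts, and in 174 DEGs that fell every PKO-6 library was. Raising the log2 threshold to 1 left 3038 DEGs, of which 1712 were higher and 1326 lower.

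Most of the genes with the largest rise were silent or nearly so in TM6. *Ostn*, which encodes the bone and muscle hormone osteocrin, had 0, 0 and 0 normalized counts in TM6 and 1566, 1231 and 1621 in PKO-6. No TM6 library held a read of it, so it was at least 523-fold higher in PKO-6 against the floor of 3 counts per library. *Cdh22*, a cadherin, had 0 in every TM6 library and 694, 718 and 641 in PKO-6, at least 243-fold higher, and *Akr1b7*, an aldo-keto reductase, had 0 and then 294, 228 and 297, at least 96.9-fold higher. *H2-Q8*, a nonclassical class I gene, had 0 in TM6 and 467, 434 and 401 in PKO-6, but it belongs to a multigene family and its count is uncertain. *P2rx3*, an ATP-gated ion channel of sensory neurons, was detected in TM6, with 16.4, 28.7 and 15 normalized counts, and had 5486, 4628 and 5280.2 in PKO-6. The lines were far apart in each library, with a log2 fold change of 8.0 (standard error 0.129, edgeR adjusted p = 2.13e-14). *Car6*, a secreted carbonic anhydrase, had 1.73, 3.82 and 1.99 normalized counts in TM6 and 3066, 2406 and 2923 in PKO-6 and rose by 10.06 on the log2 scale (edgeR adjusted p = 6.59e-14). High levels of *Ostn*, *P2rx3* and *Car6* were not particular to PKO-6. Their means were 1062, 3081 and 2059 in rho0 and 247, 1339 and 124 in PKO-1. For *Cdh22*, *Akr1b7* and *H2-Q8* the means were 64.9, 97.0 and 43.5 in rho0 and 4.68, 24.7 and 0 in PKO-1.

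The others of the 12 with the largest rise were at or near 0 in TM6. *Dcdc2a*, a doublecortin family gene, had 1138, 849.8 and 1267 normalized counts in PKO-6, *Esrp1*, an epithelial splicing regulator, had 466, 454 and 429, and *Cox6a2*, the muscle form of a cytochrome c oxidase subunit, had 1066, 991 and 853. The inner ear gene *Otog* had 284, 232 and 280.2 and *Sspo*, which encodes a giant secreted protein of the brain, 481, 246 and 395. *Gm13154*, a zinc finger gene with close relatives nearby, had 3.46, 1.91 and 3.99 in TM6 and 796, 787 and 943 in PKO-6, and how reads were split among its relatives is uncertain. In each of these genes the lowest PKO-6 library lay far above the highest TM6 library. In rho0 the means were 599 for *Cox6a2*, 160 for *Sspo*, 68.2 for *Dcdc2a*, 27.3 for *Gm13154*, 23.2 for *Otog* and 2.73 for *Esrp1*. In PKO-1 they were 61.2, 32.6, 1.11, 107, 26.4 and 0.70 in the same order.

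Among the 12 genes that fell most, *Hand2*, a regulator of limb and heart development, had 1526, 1534 and 1407 normalized counts in TM6 but 0 in every PKO-6 library, at least 527-fold lower. *Hoxd13*, which patterns the distal limb, had 1238, 1427 and 1410.0 in TM6 and 0 in PKO-6, at least 481-fold lower, and *Pitx1*, a factor of hindlimb identity, had 514, 489 and 476 and 0, at least 175-fold lower. *Tfap2a*, with 316, 262 and 335 normalized counts in TM6, was also at 0 in PKO-6, and *Runx3*, a Runt family factor with 1479, 1435 and 1345 in TM6, had 0.819, 1.04 and 0.97 in PKO-6. No PKO-6 library thus held more than 1 count of any of these factors. *Mmp2*, which encodes the matrix protease gelatinase A, had 1574, 1479.8 and 1404 in TM6 and 0 in PKO-6, at least 526-fold lower. *Cxcl12*, the chemokine that holds blood stem cells in their niche, had 19484, 18748 and 18919 in TM6 and 8.19, 9.33 and 3.88 in PKO-6. Each PKO-6 library held fewer than 10 normalized counts, and the log2 fold change was -11.36 (standard error 0.106, edgeR adjusted p = 1.14e-16). Most of these losses were shared with the other derived lines. *Hand2*, *Hoxd13* and *Mmp2* were at 0 in every PKO-1 and rho0 library too, and *Pitx1* and *Tfap2a* had at most 1.19 there. *Cxcl12* had means of 2.59 in PKO-1 and 152 in rho0, and *Runx3* 55.4 and 205.

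*Arhgap36*, an X-linked regulator of Hedgehog signaling, had 3088, 3335 and 3233 normalized counts in TM6 and 0.819, 0 and 4.85 in PKO-6, and *Rcn1*, a calcium-binding protein of the endoplasmic reticulum, 2925, 3176 and 3174 and 1.64, 0 and 7.76. *Zfp518b*, with 473, 469 and 456 in TM6, and *Fam13c*, with 315, 340.1 and 310.1, were at 0 in all PKO-6 libraries, at least 165-fold and at least 114-fold lower. *Gm20594* was also at 0 in PKO-6 but varied within TM6, with 111, 227 and 478, and it was no longer called with DESeq2's Wald test, where its shrunken log2 fold change was -0.30 (DESeq2 adjusted p = 0.177). It was at 0 in every PKO-1 and rho0 library too. *Zfp518b* and *Fam13c* were at 0 in PKO-1, with means of 31.9 and 68.2 in rho0. *Arhgap36* had means of 46.9 in PKO-1 and 28.4 in rho0, and *Rcn1* 2323 and 655.

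**Figure D1:**
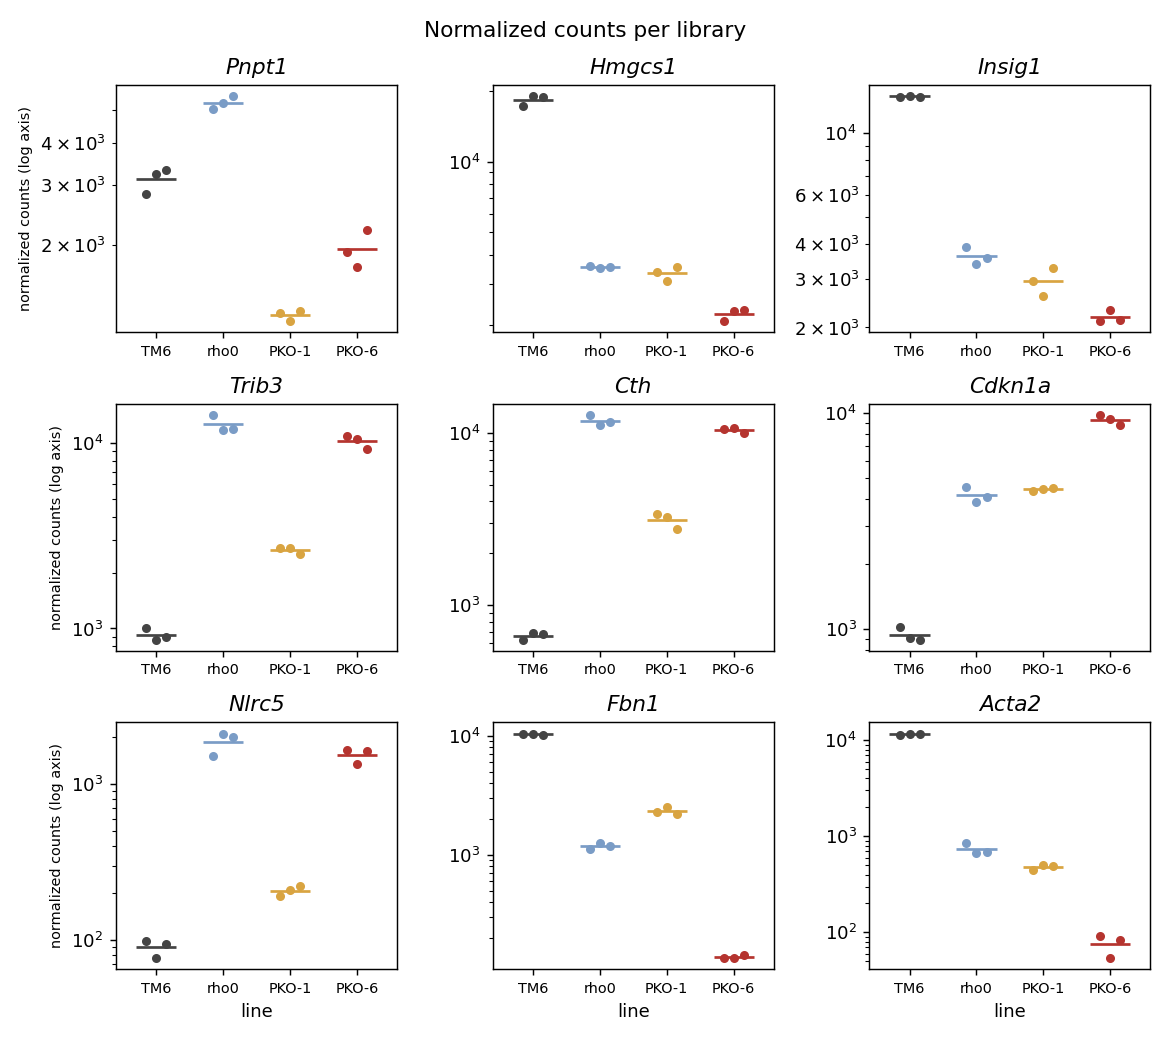
Normalized counts of 9 genes in each library, with lines on the horizontal axis and normalized counts on a log axis, where each point is a library and each bar is the mean of 3 libraries. In *Pnpt1*, *Hmgcs1*, *Insig1*, *Fbn1* and *Acta2* the PKO-6 points lie below all TM6 points, and in *Trib3*, *Cth*, *Cdkn1a* and *Nlrc5* they lie above them.

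Most genes of cholesterol synthesis fell. Of the 20 enzymes from acetyl-CoA to cholesterol, 19 fell and 0 rose, with a median log2 fold change of -2.16, and the remaining enzyme, *Tm7sf2*, a sterol reductase, had 212, 215 and 199 normalized counts in TM6 and 160.5, 143 and 139 in PKO-6 and lay at the threshold, with a log2 fold change of -0.50 that was called in 18 of 20 alternative settings. *Hmgcs1*, which makes the first committed precursor of mevalonate, had 17272, 19055 and 18934 in TM6 and 2093, 2310.1 and 2326 in PKO-6. Each PKO-6 library lay below each TM6 library, and the log2 fold change was -3.04 (standard error 0.0664, edgeR adjusted p = 2.15e-13). In the branch that builds farnesyl diphosphate, *Fdps* had a log2 fold change of -3.03 and *Idi1* one of -2.62. After squalene, where the ring is closed and trimmed, the genes that fell ran from -1.52 for *Hsd17b7* to -3.39 for *Nsdhl*, with the lanosterol demethylase *Cyp51* at -3.38 (13869.5, 15186 and 14925 in TM6 and 1299.5, 1507 and 1421 in PKO-6). *Nsdhl* is X-linked and was at -2.52 with the median of chromosome X subtracted. The same list set against PKO-1 held 1 higher and 4 lower DEGs with a median of -0.25, and against rho0 0 higher and 4 lower with a median of -0.16. Over all genes tested, 29.1% were called against PKO-1 (17.6% higher and 11.5% lower) and 21.5% against rho0 (13.3% higher and 8.16% lower), so the share of sterol genes called in all was near that of all genes in both tests.

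Genes that sense and import cholesterol changed in both directions. In the list of control by SREBP, the factor that switches on sterol genes when membranes lack cholesterol, and by LXR, its counterpart for excess sterol, 9 of 20 tested genes fell, 3 rose, 8 were not called and the median was -0.59. *Srebf2*, which encodes the SREBP of sterol genes, had 27143, 25639 and 23872 normalized counts in TM6 and 8169, 9167 and 6714 in PKO-6. The lines did not overlap, with a log2 fold change of -1.67 (standard error 0.106, edgeR adjusted p = 6.48e-09). *Insig1*, which retains SREBP in the endoplasmic reticulum, had a log2 fold change of -2.64 and the sterol carrier *Stard4* one of -2.13, and the LXR targets *Abca1*, a sterol exporter, and *Mylip*, a ubiquitin ligase, were at -3.01 and -0.93. *Vldlr*, a lipoprotein receptor, had 282, 299 and 235 in TM6 and 5505, 5254 and 5663 in PKO-6 and rose by 4.33 (edgeR adjusted p = 2.56e-14).

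Of 20 genes of synthesis and desaturation of fatty acids, 17 fell and 0 rose, with a median of -1.06. *Scd2*, a desaturase that makes monounsaturated fatty acids, had 130878, 135695 and 129695 normalized counts in TM6 and 15092, 16949 and 14252 in PKO-6. It was lower in each PKO-6 library, with a log2 fold change of -3.10 (standard error 0.0756, edgeR adjusted p = 5.4e-13). The log2 fold change was -2.39 for *Scd1*, -2.04 for the elongase *Elovl6*, -1.96 for the desaturase *Fads2* and -1.04 for the synthase *Fasn*. Against rho0, 7 of the 20 were lower in PKO-6 (8.16% of all genes) and 0 higher, *Scd2* among them with a log2 fold change of -1.73 (edgeR adjusted p = 3.47e-10). Set against PKO-1, 2 of the 20 were higher in PKO-6 (17.6% of all genes) and 5 lower (11.5%), with a median of -0.12.

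The bases upstream of these genes were read from RefSeq promoter windows of GRCm38.p6, of which 15 matched the 20 sterol genes. The letters TCACNCCAC, a sterol regulatory element, were searched on both strands of the 250 bases before each start, and 176 of 17358 genes held them (1.01%). They were found before 1 of the 15 sterol genes, *Hmgcs1*, and before 0 of 17 SREBP and LXR genes and 0 of 17 fatty acid genes with a window. The window of *Hmgcs1* is printed because the element lies on the coding strand of a gene that fell, with the match in capitals (chr13:119690184-119690252, plus strand).
*Hmgcs1*: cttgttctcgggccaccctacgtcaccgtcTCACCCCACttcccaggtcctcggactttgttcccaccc
The match is given as a description of the sequence, and no match in the other windows says only that these letters are not within them.

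Most genes of the ATF4 and CHOP stress response rose. Of 20 genes in the list, 16 rose, 1 fell and the median log2 fold change was 1.46. *Atf4* itself had 15342, 15164 and 15316 normalized counts in TM6 and 34437, 35944 and 33327 in PKO-6, and *Ddit3*, which encodes CHOP, had 1068, 963 and 1016 and 5093, 4284 and 4349. PKO-6 was higher in each library, with log2 fold changes of 1.18 for *Atf4* and 2.17 for *Ddit3* (edgeR adjusted p = 2.3e-09 and 2.96e-11). *Trib3*, a pseudokinase that restrains ATF4 and CHOP, had 1006, 872 and 898 in TM6 and 10866, 10498 and 9261 in PKO-6. PKO-6 was far higher in each library, with a log2 fold change of 3.46 (standard error 0.0924, edgeR adjusted p = 1.15e-12). The stress hormone *Gdf15* rose by 3.34, the secreted glycoprotein *Stc2* by 3.29, *Sesn2*, an inhibitor of mTORC1, by 2.79, *Chac1*, which degrades glutathione, by 2.59, and *Ppp1r15a*, which reverses the phosphorylation of eIF2 alpha, by 2.32. *Fgf21*, the other hormone of this response, stayed low, with 4.32, 0.955 and 4.99 in TM6 and 16.4, 8.29 and 21.3 in PKO-6, and its call was lost without TM6 replicate 2, PKO-6 replicate 1 or PKO-6 replicate 3 (log2 fold changes of 1.71, 2.05 and 1.84). *Hspa5*, the main chaperone of the endoplasmic reticulum, fell by 0.52, or by 0.43 and not called with chromosome medians subtracted, and *Xbp1*, a regulator of its unfolded protein response, had 1541, 1469 and 1459 and 1288, 1290.3 and 1218 and was not called.

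In the direct tests, 15 of the 20 were higher in PKO-6 than in PKO-1 and 0 lower, with a median of 1.06, where 17.6% of all genes were higher. Against rho0 1 was higher and 3 lower, with a median of -0.17, a share near the 21.5% of all genes called. *Trib3* had 2732, 2708 and 2509 normalized counts in PKO-1 and 14169.9, 11747 and 11929 in rho0. PKO-6 was above PKO-1 in every library, with a log2 fold change of 1.95 (edgeR adjusted p = 3.34e-10), and below rho0 in every library, where the log2 fold change was -0.31 and the gene was not called (edgeR adjusted p = 0.00655). *Gdf15* had a log2 fold change of 1.13 against PKO-1 and of -0.70 against rho0.

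Enzymes that make serine, one-carbon units, asparagine and proline, many of them targets of ATF4, rose in 12 of 19 tested genes and fell in 1, with a median of 1.14. *Cth*, which makes cysteine from cystathionine, had 629, 683 and 678 normalized counts in TM6 and 10510.1, 10619 and 9990.4 in PKO-6. PKO-6 was higher throughout, with a log2 fold change of 3.97 (standard error 0.0855, edgeR adjusted p = 2.03e-13). Asparagine synthetase, *Asns*, had 6298, 6546 and 6526 and 18506, 19046 and 17738, and the mitochondrial folate enzyme *Mthfd2* had 6448, 6784 and 6943 and 17244, 17657 and 16134. Both rose without overlap, by 1.51 and 1.34 on the log2 scale. *Psph* and *Shmt2* of serine and glycine synthesis rose by 1.68 and 1.14, *Aldh1l2*, which burns formyl-folate in mitochondria, by 2.03, *Gpt2*, which makes alanine, by 2.11, and *Aldh18a1* and *Pycr1* of proline synthesis by 1.12 and 1.22. *Psat1*, the middle enzyme of serine synthesis, had 22322, 23565 and 23566 in TM6 and 28017, 30247 and 25743 in PKO-6 and was not called. The exception was *Aldh1l1*, the cytosolic partner of *Aldh1l2*, which fell by 1.34. Set against PKO-1, 13 of the 19 were higher in PKO-6 (17.6% of all genes) and 0 lower, and against rho0 1 was higher and 3 lower, near the 21.5% of all genes called.

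Amino acid transporters were divided, with 8 of 18 higher and 6 lower (77.8% called, against 41.3% of all genes) and a median of 0.28, or 0.15 without PKO-6 replicate 1. *Slc7a11*, which imports cystine, had 1980.0, 2345 and 2241 normalized counts in TM6 and 6801, 6769.6 and 7232 in PKO-6, and the neutral amino acid carrier *Slc1a5* had 2618, 2263 and 2379 and 7376, 7372 and 6571. Both rose, by 1.66 and 1.55, as did the glycine carrier *Slc6a9*, by 1.92. *Slc38a4*, an imprinted carrier of neutral amino acids, had 3300.3, 3801 and 3793 in TM6 and 63.9, 81.9 and 97 in PKO-6 and fell by 5.50, and the glutamate carrier *Slc1a3* fell by 2.58.

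The letters TGATGNAA, the core of the amino acid response element bound by ATF4 with a C/EBP partner, were searched in the same windows on both strands, where 529 of 17358 genes held them (3.05%). They were present before 5 of 19 ATF4 and CHOP genes with a window (26.3%), 4 of 16 genes of serine, one-carbon, asparagine and proline synthesis (25%) and 2 of 13 amino acid transporters (15.4%). Windows of 4 genes that were called higher are printed, with the match in capitals: *Atf3* (chr1:191183406-191183473, minus strand), *Chac1* (chr2:119351019-119351086, plus strand), *Got1* (chr19:43524670-43524737, minus strand) and *Slc7a11* (chr3:50443642-50443709, minus strand). In the first 3 the element lies on the strand opposite to the gene, so its reverse complement is in capitals, and *Slc7a11* holds a further match on that strand within the same window.
*Atf3*: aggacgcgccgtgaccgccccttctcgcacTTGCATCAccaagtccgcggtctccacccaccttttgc
*Chac1*: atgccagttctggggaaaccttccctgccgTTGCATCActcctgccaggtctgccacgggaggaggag
*Got1*: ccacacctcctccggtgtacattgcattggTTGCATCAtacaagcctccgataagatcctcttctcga
*Slc7a11*: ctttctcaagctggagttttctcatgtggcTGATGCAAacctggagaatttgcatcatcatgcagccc
*Atf3*, a factor of the stress response, had 489, 481 and 482 normalized counts in TM6 and 1538, 1301 and 1568 in PKO-6, and *Got1*, the cytosolic aspartate aminotransferase, had 2671, 2874 and 2737 and 6863, 6727 and 6099. Both were higher in each PKO-6 library, by 1.60 and 1.25 on the log2 scale.

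Of 18 proteases and chaperonins of mitochondria, 4 rose and 0 fell, with a median of -0.00 (-0.071 without TM6 replicate 1 to 0.025 without TM6 replicate 2), so that 22.2% were called against 41.3% of all genes tested (21.9% higher and 19.4% lower). Without PKO-6 replicate 2, 3 were called higher and 1 lower. *Lonp1*, the main protease of the matrix, had 8625, 8609 and 8464 normalized counts in TM6 and 28686, 27078 and 26755 in PKO-6, and *Hspa9*, the matrix Hsp70 that drives protein import, had 43028, 47470.4 and 47576 and 111597, 113307 and 114989. Both were higher in every PKO-6 library, with log2 fold changes of 1.68 and 1.30 (edgeR adjusted p = 1.85e-11 and 1.39e-09). The chaperonins *Hspd1* and *Hspe1*, classical markers of the mitochondrial unfolded protein response, were not called, with log2 fold changes of 0.03 and 0.01. In the list of PNPase and mitochondrial RNA processing, 4 of 19 rose and 2 fell (31.6% called), *Pnpt1* and *Hsd17b10*, a subunit of mitochondrial RNase P. *Hsd17b10* is X-linked and its log2 fold change of -0.55 turned to 0.32 with the median of each chromosome subtracted, and its call was lost at -0.48 without PKO-6 replicate 3. *Supv3l1*, the helicase that works with PNPase, had 2294, 2381 and 2467 in TM6 and 2383, 2477 and 2569 in PKO-6, which overlapped. *Fastkd2*, which matures ribosomal RNA of mitochondria, rose by 1.02, and *Rnaset2a* and *Rnaset2b* rose by 1.65 and 1.17, but they are near-identical copies whose counts are uncertain. Of 18 genes of mtDNA replication and transcription, 6 rose and 0 fell (33.3% called), with a median of 0.35, led by the primase *Primpol* (1.08) and the nuclease *Mgme1* (0.68), while *Tfam*, which packs mtDNA, had 3048, 3234 and 3216 and 4005, 4023 and 4045 and was not called. In that list 1 gene was called lower with DESeq2's size factors or Wald test, with *Rn45s* left out, with the compared lines alone and the replicate block, without TM6 replicate 2 and without any of rho0 replicates 1, 2 and 3.

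Among nuclear subunits of complex I, 1 of 36 rose and 6 fell, with a median of -0.10 that was -0.015 without PKO-6 replicate 3 and -0.208 without PKO-6 replicate 2, and in complexes II to V 2 of 42 rose and 7 fell, with a median of -0.18. In these lists 19.4% and 21.4% were called, against 41.3% of all genes tested. Without PKO-6 replicate 3, 3 genes of complexes II to V were called lower, and without PKO-6 replicate 2, 10 were. The lowest was *Cox7b* of cytochrome c oxidase, an X-linked gene with 4618, 5139 and 4987 normalized counts in TM6 and 1873, 1911 and 1927 in PKO-6 and a log2 fold change of -1.37 (edgeR adjusted p = 1.54e-10). *Ndufb11* of complex I, also X-linked, fell by 1.28. With the median of each chromosome subtracted, neither was called, at -0.50 and -0.41. Of 77 mitochondrial ribosomal proteins 5 rose and 10 fell, with a median of -0.06 (-0.132 without TM6 replicate 1, -0.129 without PKO-6 replicate 2 and -0.097, -0.096 and -0.096 without rho0 replicates 1, 2 and 3), so that 19.5% of them were called against 41.3% of all genes tested, and 3 were called higher without TM6 replicate 1 or with chromosome medians subtracted. In the TCA cycle, 10 of 21 genes fell and 2 rose (57.1% called, against 41.3% of all genes), with a median of -0.50, and 1 was called higher without TM6 replicate 1 or with chromosome medians subtracted. *Pdha1*, the X-linked subunit of pyruvate dehydrogenase, had 11433, 12904 and 12579 in TM6 and 4439.9, 4617 and 4923 in PKO-6. The lines did not overlap and the log2 fold change was -1.40 (edgeR adjusted p = 3.03e-10), or -0.53 with the median of chromosome X subtracted. *Idh1* fell by 1.30 and *Suclg2* rose by 0.89. Of 25 genes of glycolysis and lactate, 2 rose and 6 fell (32.0% called), with a median of -0.16, or -0.10 without PKO-6 replicate 3. With chromosome medians subtracted 4 were called lower, and 9 were with the compared lines alone, with *Rn45s* left out, without TM6 replicate 1, without PKO-6 replicate 2 and without any of the rho0 replicates. *Hk2*, the inducible hexokinase, had 3825, 3849 and 3949.7 and 8097, 8359 and 7839.9 and rose by 1.06, whereas *Ldha* lay just short of the threshold at -0.49 and was called in 12 of 20 alternative settings, and *Ldhb*, the lactate dehydrogenase subunit of oxidative tissues, had 359.7, 392 and 331 and 77.8, 87.1 and 71.7 and fell by 2.19.

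Of 19 genes of dNTP supply and pyrimidine carriers, 3 rose and 4 fell, with a median of -0.05 that, with 1 library left out, ran from -0.139 without TM6 replicate 2 to -0.026 without TM6 replicate 3, so that 36.8% were called against 41.3% of all genes tested. In place of 4, 7 were called lower without PKO-6 replicate 2, with the compared lines alone, with *Rn45s* left out and without any of rho0 replicates 1, 2 and 3. *Slc25a4*, the ADP/ATP carrier of muscle and heart, had 16629, 17992 and 17292 normalized counts in TM6 and 5938, 6301 and 5442 in PKO-6, lower in each library, with a log2 fold change of -1.55 (edgeR adjusted p = 9.18e-10), or -1.13 with the median of chromosome 8 subtracted. *Samhd1*, which degrades dNTPs, fell by 1.36, and the carriers *Slc25a33* and *Slc25a36*, which bring pyrimidine nucleotides into mitochondria, rose by 0.74 and 0.75. Of 15 genes of pyrimidine synthesis and uridine salvage, 3 rose and 3 fell, with a median of -0.16 that turned to 0.12 with chromosome medians subtracted and was -0.26 without PKO-6 replicate 2 and -0.095 without PKO-6 replicate 3. In all 40.0% of them were called, near the 41.3% of all genes tested. *Upp1*, which cleaves uridine, had 54.5, 70.7 and 59.8 in TM6 and 323, 331 and 285 in PKO-6. PKO-6 was higher in each library, with a log2 fold change of 2.34 (standard error 0.146, edgeR adjusted p = 5.3e-09). *Dhodh*, the step that needs the respiratory chain, had 779.9, 739 and 729.9 and 640.4, 644 and 593 and was not called.

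The factor p53 halts the cell cycle or triggers death after damage. Of 19 listed genes, p53 itself and its targets, 12 rose and 3 fell (78.9% called, against 41.3% of all genes), with a median of 1.06. *Cdkn1a*, the cyclin-dependent kinase inhibitor p21, had 1019, 909 and 893 normalized counts in TM6 and 9808, 9414 and 8771 in PKO-6. Its PKO-6 libraries all lay far above those of TM6, with a log2 fold change of 3.31 (standard error 0.0744, edgeR adjusted p = 2.7e-13). *Trp53inp1*, a proapoptotic partner of p53, had 261, 294 and 321 in TM6 and 4484, 3836 and 5379 in PKO-6, and *Pmaip1*, the BH3-only protein Noxa, had 179, 187 and 201 and 2490.2, 2333 and 2888. Both were higher throughout, by 3.97 and 3.76 on the log2 scale (edgeR adjusted p = 3.21e-12 and 1.91e-12). *Ccng1* rose by 2.01, *Eda2r*, a death receptor, by 2.11, *Zmat3* by 1.61 and *Mdm2*, the ligase that degrades p53, by 1.19. *Trp53* itself had 8894, 8642 and 8416 in TM6 and 9188, 9714 and 7665 in PKO-6 and was not called, and *Sesn1* and *Plk2* fell, with log2 fold changes of -0.76 and -0.74. *Fas*, a death receptor, fell by 0.62, but the call was lost without any of TM6 replicates 1, 2 and 3 (log2 fold changes of -0.63, -0.62 and -0.63) and without PKO-6 replicate 1 or 2 (-0.56 and -0.63). RNA of the large T antigen, which binds p53 and is carried by these lines, was not analysed here.

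PKO-6 was higher than both other derived lines in several of these genes. Of the 19, 11 were higher in PKO-6 than in PKO-1 (17.6% of all genes) and 12 higher than in rho0 (13.3% of all genes), with 0 lower in either test. *Cdkn1a* had 4333, 4468 and 4493 normalized counts in PKO-1 and 4526, 3864 and 4086 in rho0. Each PKO-6 library lay above these 6 libraries, with log2 fold changes of 1.07 and 1.17 (edgeR adjusted p = 1.15e-08 and 1.02e-08).

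Genes of DNA replication and mitosis that were called were lower. Of 28 genes of DNA replication and S phase, 11 fell and 0 rose, with a median of -0.43, and of 28 genes of mitosis 11 fell and 0 rose, with a median of -0.38. Thus 39.3% of either list was called lower, against 19.4% of all genes tested, and 0 were called higher, against 21.9% of all genes tested. With chromosome medians subtracted, 7 genes of DNA replication and S phase were called lower. The helicase subunit *Mcm5* had 13175, 12912 and 12210.0 normalized counts in TM6 and 5231, 5384 and 4769 in PKO-6, the proliferation marker *Mki67* had 35210.3, 35367 and 38517 and 18638, 20093 and 22145, and the mitotic kinase *Plk1* had 5835, 5804 and 5903 and 2869, 3354 and 2959. None of these 3 overlapped between the lines, and the log2 fold changes were -1.32, -0.84 and -0.93 (edgeR adjusted p = 1.3e-09, 1.84e-06 and 2.85e-08). *Mcm5* was at -0.89 with the median of chromosome 8 subtracted. Of the 28 mitosis genes, 16 were lower in PKO-6 than in PKO-1 (11.5% of all genes) and 0 were called lower than in rho0 (8.16% of all genes). Among 16 G1 cyclins and inhibitors, 5 rose and 6 fell: besides *Cdkn1a*, the cyclins *Ccnd2* and *Ccnd1* rose by 1.19 and 0.73 and *Myc* by 0.76, while the inhibitors *Cdkn2d* and *Cdkn2c* fell, with log2 fold changes of -1.72 and -1.19.

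Interferon-stimulated genes fell in 16 of 30 tested and rose in 2 (60.0% called, against 41.3% of all genes), with a median of -0.65, and 1 was called higher with the replicate block in the fit of 4 lines and without TM6 replicate 2 or 3, PKO-6 replicate 1 or 3 or rho0 replicate 3. *Isg15*, a ubiquitin-like modifier, had 265, 246 and 218 normalized counts in TM6 and 17.2, 20.7 and 21.3 in PKO-6, and *Ifit1*, which binds foreign RNA, had 648, 620.0 and 659 and 80.2, 95.3 and 97. PKO-6 was lower in each library, with log2 fold changes of -3.62 and -2.82 (edgeR adjusted p = 2.3e-10 and 1.2e-10). Of 14 sensors of nucleic acids and their adaptors, 8 fell and 3 rose (78.6% called), with a median of -0.58. With the compared lines alone, with *Rn45s* left out and without any of rho0 replicates 1, 2 and 3, 1 was called higher. *Ifih1*, which encodes the double-stranded RNA sensor MDA5, had 699, 753 and 693 and 165, 166 and 175 and fell by 2.08, and *Ddx58*, which encodes RIG-I, fell by 0.79. *Aim2*, a sensor of cytosolic DNA, had 13, 5.73 and 7.98 in TM6 and 136, 133 and 185 in PKO-6 and rose by 4.05 (edgeR adjusted p = 3.3e-06).

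Genes that present peptides on MHC class I rose in 10 of 18 and fell in 5 (83.3% called, against 41.3% of all genes), with a median of 1.24. *Nlrc5*, the transactivator of class I genes, had 98.6, 76.4 and 94.7 normalized counts in TM6 and 1641, 1346 and 1634 in PKO-6. PKO-6 was far higher in each library, with a log2 fold change of 4.10 (standard error 0.149, edgeR adjusted p = 2.17e-11). *B2m*, the shared light chain, had 8072, 8608 and 8718 and 20638, 20665 and 21349, and *Tap1*, which pumps peptides into the endoplasmic reticulum, had 176, 175 and 159.5 and 835, 901 and 774. These 2 rose without overlap, by 1.30 and 2.29. The heavy chains *H2-K1* and *H2-D1* rose by 2.70 and 2.13, but genes of this family share sequence, so how their reads were divided is uncertain. The chaperones *Tapbp* and *Calr*, which help class I molecules load peptide, fell, with log2 fold changes of -1.46 and -1.25, and the immunoproteasome subunit *Psmb10* fell by 1.09. With the median of chromosome 8 subtracted, *Calr* was at -0.82 and *Psmb10* at -0.66. Against PKO-1, 11 of the 18 were higher in PKO-6 (17.6% of all genes) and 2 lower (11.5%), *Nlrc5* with 190.5, 208 and 222 in PKO-1 and a log2 fold change of 2.89 (edgeR adjusted p = 6.38e-10). Against rho0 3 of the 18 were higher and 1 lower, with a median of 0.185, a share near the 21.5% of all genes called.

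Of 16 tested chemokines and cytokines, 13 fell and 3 rose, with a median of -1.64. Besides *Cxcl12*, the monocyte chemokine *Ccl7* had 749, 744 and 746 normalized counts in TM6 and 4.09, 9.33 and 3.88 in PKO-6, *Ccl2* had 1486, 1660.4 and 1707 and 179, 273 and 224, and *Cxcl10*, an interferon-induced chemokine, had 693, 802 and 749 and 84.3, 95.3 and 87.3. All 3 were lower in every PKO-6 library, with log2 fold changes of -7.02, -2.85 and -3.07. *Lif*, a cytokine of the interleukin 6 family, had 580.2, 470.0 and 633 and 1568, 1289 and 1474 and rose by 1.36, and *Ptgs2*, an enzyme of prostaglandin synthesis listed with them, rose by 0.90.

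**Figure D2:**
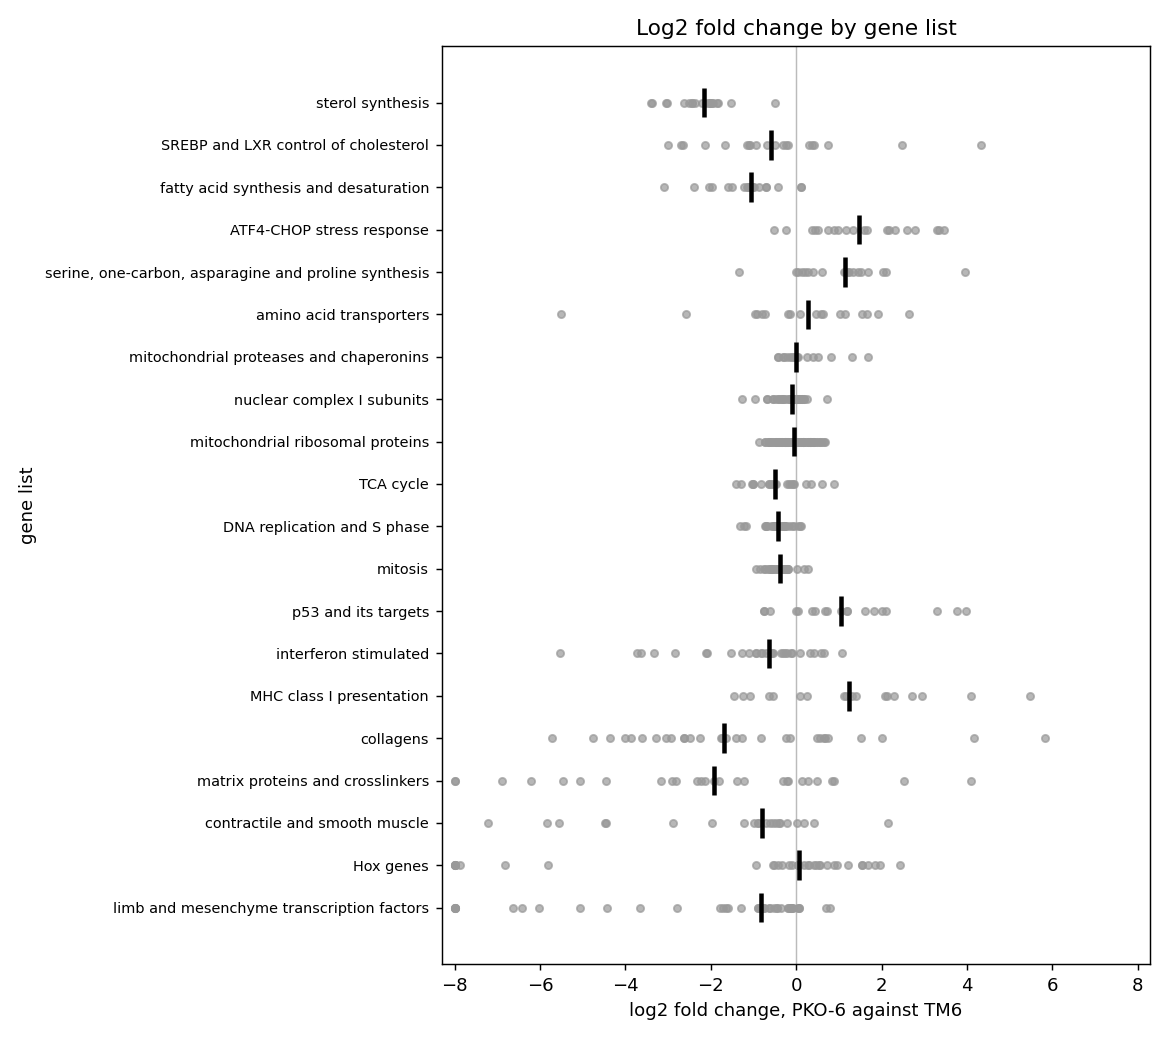
Log2 fold change of PKO-6 against TM6 for the tested members of 20 gene lists, on the horizontal axis, with 1 grey point per gene and a black bar at the median of the list. Sterol synthesis lies wholly below 0 with its median at -2.16, and the ATF4 and CHOP genes have their median at 1.46. Values beyond -8 and 8 are drawn at the edge.

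Many genes of the extracellular matrix, the main product of fibroblasts, fell. Of 30 tested collagens, 19 fell and 4 rose (76.7% called, against 41.3% of all genes), with a median of -1.69. *Col1a1*, the chief collagen of connective tissue, had 196509, 186142 and 163969 normalized counts in TM6 and 38824, 45333 and 30948 in PKO-6. PKO-6 was lower in each library, with a log2 fold change of -2.25 (standard error 0.135, edgeR adjusted p = 3.7e-09). *Col3a1* and *Col12a1* also fell, with log2 fold changes of -3.86 and -4.35. In collagen IV of basement membranes the chains parted: *Col4a1* had 9443, 9875 and 9061 and 956, 1060.2 and 891, whereas *Col4a4* had 15.6, 8.60 and 5.98 and 609, 504 and 660.3. The first fell by 3.29 and the second rose by 5.83 (edgeR adjusted p = 3.09e-13 and 7.36e-11), and *Col4a3*, the neighbour of *Col4a4*, rose by 4.17. With the median of chromosome 8 subtracted, *Col4a1* was at -2.86. *Col1a1* and *Col4a1* are named after their values were seen, *Col1a1* also as a fibroblast marker.

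Of 27 matrix proteins and crosslinkers, 16 fell and 4 rose, with a median of -1.92, or -1.81 with elastin, which had at most 5 counts in a TM6 library and 0 in PKO-6, set to its bound. *Bgn*, the X-linked proteoglycan biglycan, had 23058, 24287 and 23129 normalized counts in TM6 and 47.5, 59.1 and 48.5 in PKO-6, and *Fbn1*, the core of microfibrils, had 10399.8, 10464 and 10089 and 135, 136 and 144. Both were far lower in all PKO-6 libraries, with log2 fold changes of -8.83 and -6.22 (edgeR adjusted p = 1.1e-15 and 1.1e-15). *Bgn* was at -7.965 with the median of chromosome X subtracted. *Postn*, which encodes periostin, had 768, 798 and 704 in TM6 and 1.64, 2.07 and 0.97 in PKO-6. In the other direction, *Ltbp4*, which tethers TGF-beta to the matrix, had 329, 300.0 and 251 and 5216, 5534 and 4389 and rose by 4.10 (edgeR adjusted p = 2.21e-12), and *Fn1*, fibronectin, rose by 0.88. Matrix proteases and inhibitors fell in 14 of 26 genes and rose in 5, with a median of -0.73: after *Mmp2*, the cathepsin *Ctsk* had a log2 fold change of -4.15 and *Plat*, which activates plasminogen, one of -3.84, while *Mmp3*, stromelysin, had 16.4, 17.2 and 14 and 214, 294 and 206 and rose by 3.89.

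Contractile genes of smooth muscle and myofibroblasts fell in 14 of 22 tested and rose in 1 (68.2% called, against 41.3% of all genes), with a median of -0.80. *Acta2*, the smooth muscle actin, had 11204, 11729.8 and 11727 normalized counts in TM6 and 92.5, 53.9 and 82.4 in PKO-6. PKO-6 was far lower in every library, with a log2 fold change of -7.22 (standard error 0.137, edgeR adjusted p = 6.59e-14). Transgelin, *Tagln*, the myosin light chain *Myl9* and calponin, *Cnn1*, had log2 fold changes of -5.84, -5.55 and -4.47. *Srf*, the factor that drives these genes, had 5898, 5589.8 and 5176 and 3477, 3758 and 2984 and fell by 0.71. Against PKO-1 and against rho0, *Acta2* was also lower in PKO-6, with log2 fold changes of -2.65 and -3.25. The list as a whole did not follow it. Against PKO-1, 0 of the 22 were higher (17.6% of all genes) and 4 lower (11.5%). Against rho0, 2 were higher (13.3% of all genes) and 3 lower (8.16%), with a median of 0.01. Integrins and focal adhesion genes split evenly, with 9 of 25 higher and 9 lower (72.0% called, against 41.3% of all genes) and a median of -0.16. *Itgb7*, a subunit of leukocyte integrins, had 178, 205 and 161 in TM6 and 3396, 3644 and 2879 in PKO-6, higher in each library by 4.19 (edgeR adjusted p = 9.11e-13), and *Itgb4*, the hemidesmosome subunit, rose by 3.35. The collagen receptor *Itga11*, vinculin, *Vcl*, and the kinase-like scaffold *Ilk* fell, with log2 fold changes of -4.48, -1.75 and -1.13.

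*Hox* genes, which lie in 4 clusters and record position along the body and limb, changed in both directions. Of 35 tested, 12 rose and 10 fell (62.9% called, against 41.3% of all genes), with a median of 0.07 that, with 1 library left out, ran from -0.012 without PKO-6 replicate 1 to 0.109 without TM6 replicate 3, and 4 of them were at 0 in every PKO-6 library. *Hoxd11* had 406, 313 and 376 normalized counts in TM6 and 0.819, 0 and 0 in PKO-6, and *Hoxc10* had 230.0, 234 and 211 and 1.64, 2.07 and 1.94. Their RNA was at or near 0 in each PKO-6 library, as was that of *Hoxd13*. *Hoxa10* had 3068, 2933 and 2944 and 1584, 1541 and 1517 and fell by 0.95. Among the genes that rose, *Hoxb7* had 59.7, 62.1 and 68.8 and 347, 343 and 343, a log2 fold change of 2.44 (standard error 0.126, edgeR adjusted p = 7.77e-10), and *Hoxb3*, *Hoxc4* and *Hoxc9* rose by 1.54, 0.96 and 1.68. Named after their values were seen, *Hoxa13*, *Hoxc11* and *Hoxd12* were at 0 in PKO-6 with 112, 102 and 124, 89.1, 98.4 and 106 and 46.7, 51.6 and 41.9 in TM6, and *Hoxd9* had 140.1, 118 and 117 and 140.0, 124 and 129.9.

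**Figure D3:**
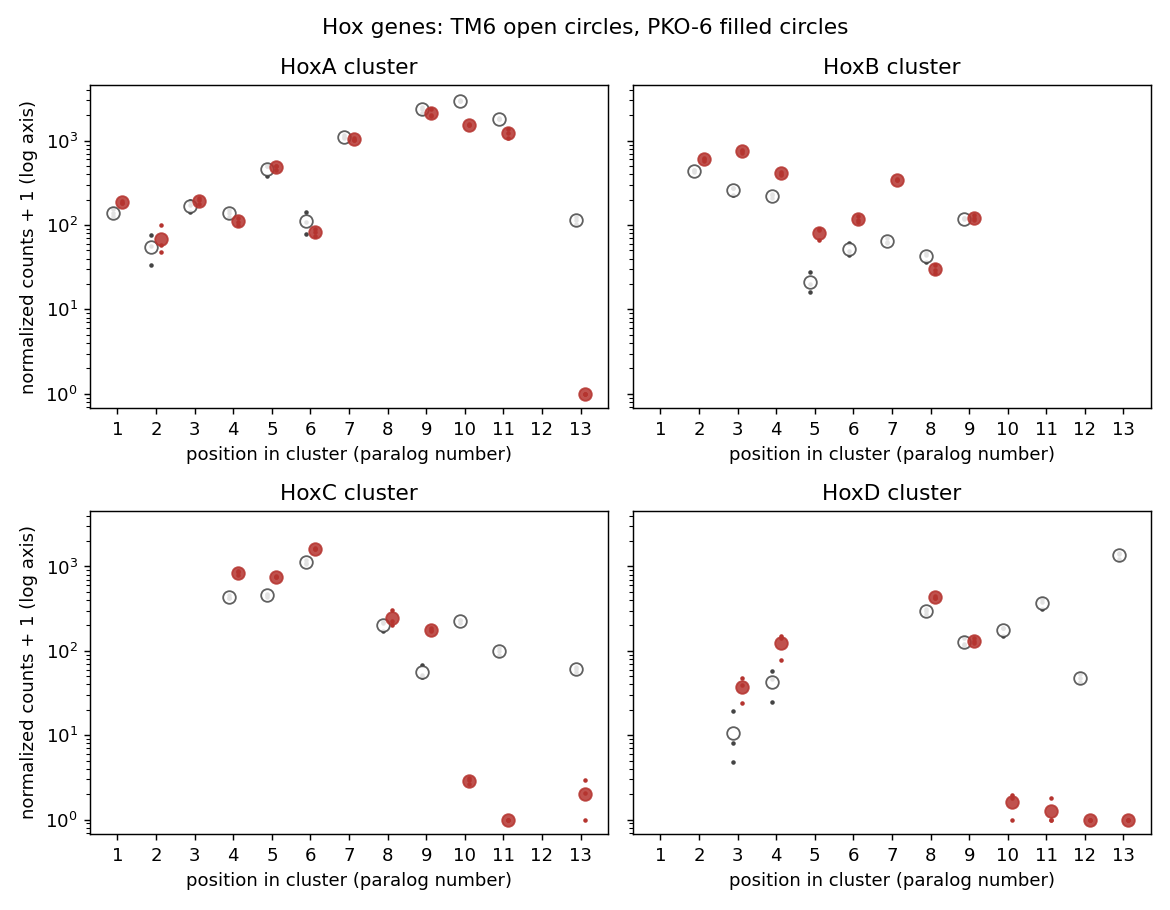
Mean normalized counts, on a log axis after adding 1, of the tested genes of the 4 *Hox* clusters in TM6 (open circles) and PKO-6 (filled circles), with the position of the gene in its cluster on the horizontal axis and small points for the 3 libraries of each line. *Hoxa13*, *Hoxc11*, *Hoxd12* and *Hoxd13* lie at 0 in PKO-6, while the filled circles of *Hoxb3* and *Hoxb7* lie above the open ones.

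Transcription factors of limb and mesenchyme fell in 27 of 42 tested and rose in 2 (69.0% called, against 41.3% of all genes), with a median of -0.83. *Alx4*, which patterns the front of the limb, had 1126, 1036 and 1030.0 normalized counts in TM6 and 0.819, 1.04 and 1.94 in PKO-6, and *Foxd1*, a factor of stromal cells, had 638, 623 and 536 and 2.46, 11.4 and 4.85. Both were nearly silent in PKO-6, where *Alx4* lay below the floor of 3 counts per library and *Foxd1* had a log2 fold change of -6.63. *Zeb2* and *Snai2*, regulators of the mesenchymal state, rose by 0.79 and 0.71. *Foxd1* was lower still in PKO-1, with 1.19, 0 and 0, and PKO-6 was called higher in that test (edgeR adjusted p = 0.00386).

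Genes of signals between cells changed in both directions. The study drew a longer list of axon genes from these samples and names some of them as examples, which are therefore no independent evidence of a direction. Of the 11 examples with a complete gene symbol, 5 rose and 6 fell, and an example named without one was left out. *Agrn*, which organizes synapses, had 1893, 1744 and 1633 normalized counts in TM6 and 8328, 8576 and 7468 in PKO-6, and *Artn*, a neurotrophic factor, had 185, 170.1 and 180.5 and 25.4, 28 and 13.6. The first was higher and the second lower in every PKO-6 library, with log2 fold changes of 2.21 and -2.99 (edgeR adjusted p = 7.52e-12 and 4.69e-08). *Reln*, an extracellular guide of migrating neurons, had 0 in TM6 and 6.55, 11.4 and 11.6 in PKO-6, and *Robo3*, a guidance receptor, 2.59, 1.91 and 1.99 and 48.3, 40.4 and 57.2, so both rose but stayed low. Semaphorins, plexins and neuropilins rose in 11 of 27 and fell in 10 (77.8% called, against 41.3% of all genes), with a median of 0.23, or 0.13 without PKO-6 replicate 2 and 0.03 without PKO-6 replicate 3. With no filter on low counts the median was 0.055 over 31 genes. The ligand *Sema4f* rose by 2.13 and the receptor *Nrp1* fell by 2.10. Ephrins, Slits, netrins and their receptors rose in 6 of 32 (21.9% of all genes) and fell in 12 (19.4% of all genes), with a median of -0.16. The median was -0.26 without PKO-6 replicate 1, and also with the compared lines alone, where 28 were tested. The netrin receptors *Unc5b* and *Unc5c* and the ligand *Ntn1* fell, with log2 fold changes of -3.08, -3.65 and -3.54.

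Wnt ligands, receptors and antagonists fell in 21 of 32 and rose in 4 (78.1% called, against 41.3% of all genes), with a median of -0.80. *Sfrp2*, a secreted antagonist, had 5615, 5699.6 and 5220.1 normalized counts in TM6 and 16.4, 14.5 and 25.2 in PKO-6, and *Rspo2*, which amplifies Wnt signals, had 1191, 1124 and 1094 and 40.9, 48.7 and 33. Both were lower throughout, with log2 fold changes of -8.20 and -4.80. The ligand *Wnt9a* had 171, 154 and 137 and 2037, 1830.2 and 1829 and rose by 3.62 (standard error 0.091, edgeR adjusted p = 7.14e-13), and *Wnt7a* rose by 2.57. In the TGF-beta and BMP pathway 17 of 32 fell and 7 rose (75.0% called), with a median of -0.62. The TGF-beta target *Tgfbi* had 1712, 1637 and 1498 and 15.6, 25.9 and 24.2, without overlap, and fell by 6.22, the ligands *Tgfb2* and *Bmp4* had log2 fold changes of -3.45 and -2.0, and the BMP antagonist *Grem1* rose by 2.25. Of 19 receptors of growth factors 6 fell and 4 rose, with a median of 0.07 that turned to -0.13 with no filter on low counts and, with 1 library left out, ran from 0.007 without PKO-6 replicate 2 to 0.081 without TM6 replicate 2. Of these receptors 52.6% were called, against 41.3% of all genes tested. *Egfr* had 2717, 2925 and 2831 and 274, 349 and 323 and fell by 3.17, *Pdgfrb* fell by 2.18 and *Erbb3* rose by 1.84.

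Antioxidant genes and targets of NRF2, which answers oxidative stress, fell in 14 of 26 and rose in 1 (57.7% called, against 41.3% of all genes), with a median of -0.59. *Gsr*, glutathione reductase, had 6603, 7218 and 7059 normalized counts in TM6 and 2119, 2386 and 2076 in PKO-6, lower in each library, with a log2 fold change of -1.67 (standard error 0.0657, edgeR adjusted p = 4.87e-11), or -1.24 with the median of chromosome 8 subtracted. *Gclm*, which supports glutathione synthesis, had a log2 fold change of -1.38, *Hmox1*, heme oxygenase, one of -1.13, or -0.71 with the median of chromosome 8 subtracted, and the secreted dismutase *Sod3* one of -1.54, and *Prdx6*, a peroxiredoxin, rose by 0.79.

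Some chromosomes were shifted as a whole in their median. The median log2 fold change was -0.87 over the 459 tested genes of chromosome X, of which 293 fell (63.8%) and 45 rose. In PKO-6 replicates 1, 2 and 3 that median was -0.85, -0.88 and -0.81 relative to the TM6 mean, while single TM6 libraries lay between -0.04 and 0.04. Chromosome 12 had a median of 0.53, with 233 of 491 genes higher (47.5%), chromosome 18 one of 0.34, with 128 of 382 higher (33.5%), and chromosome 8 one of -0.43, with 312 of 739 lower (42.2%). Each of these shifts was present in all 3 PKO-6 libraries, at 0.52, 0.51 and 0.55 for chromosome 12 and -0.43, -0.42 and -0.45 for chromosome 8. On chromosome 8 PKO-6 was also lower than PKO-1, with a median of -0.30, and than rho0, with a median of -0.27, whereas on chromosome 12 these medians were 0.01 and -0.01. They were -0.19 and -0.11 on chromosome X and -0.01 and -0.07 on chromosome 18. The number of copies of each chromosome was not measured here. With chromosome medians subtracted, the list medians went from -2.16 to -2.09 in sterol synthesis and from 1.46 to 1.35 in the ATF4 and CHOP genes.

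**Figure D4:**
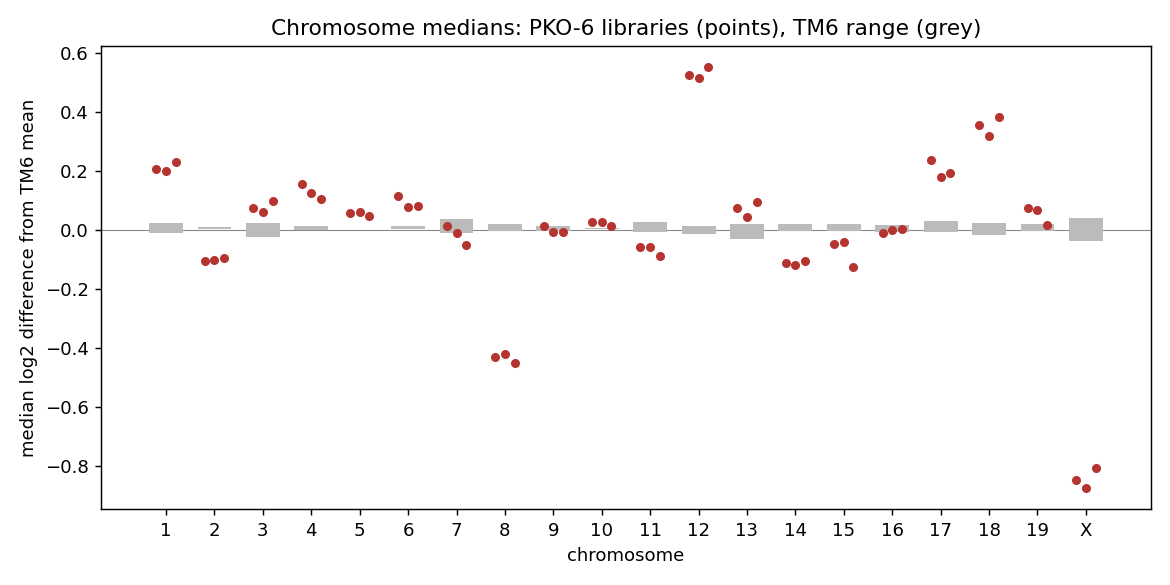
Median log2 difference from the TM6 mean over the tested genes of each chromosome (vertical axis) by chromosome (horizontal axis), with 1 point for each PKO-6 library and a grey bar from the lowest to the highest TM6 library. The 3 PKO-6 libraries lie together near -0.43 on chromosome 8, 0.53 on chromosome 12, 0.34 on chromosome 18 and -0.87 on chromosome X.

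*Xist*, the RNA that coats the silenced X chromosome of female cells, had 38495, 29776 and 38340.2 normalized counts in TM6 and 80185, 55288 and 99686 in PKO-6. PKO-6 was higher in each library, with a log2 fold change of 1.14 (standard error 0.278, edgeR adjusted p = 0.0022), but *Tsix* overlaps *Xist* on the other strand, and the call was lost with DESeq2's Wald test and without TM6 replicate 2, at 0.94 and 1.03 (adjusted p = 0.0185 by DESeq2 and 0.0124 by edgeR). With the median of chromosome X subtracted, *Xist* was at 2.01. Of 11 genes of X inactivation and escape, 2 rose and 4 fell, with a median of -0.06 that, with 1 library left out, ran from -0.215 without TM6 replicate 2 to -0.023 without TM6 replicate 3. With chromosome medians subtracted 3 were called higher and 0 lower, and the median turned to 0.53, while 1 was called higher without TM6 replicate 2, without PKO-6 replicate 1 or with DESeq2's Wald test. *Rlim*, which activates *Xist*, had 12747, 15376 and 15272 and 6384, 6347 and 7089 and fell by 1.13, a call lost at -0.26 with the median of chromosome X subtracted. Of 4 Y-linked genes searched for, 0 passed the filter. PKO-1 held far less *Xist*, at 53.6, 16 and 22.8, and rho0 held 47051, 109328 and 97788, which overlapped PKO-6.

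PKO-6 was last set directly against the other derived lines to find where it stood apart. Against PKO-1, 4087 genes were called (29.1%), with 2467 higher and 1620 lower in PKO-6, and against rho0 3014 (21.5%), with 1870 higher and 1144 lower. In 1043 genes PKO-6 was called against TM6, PKO-1 and rho0 in the same direction, 731 higher and 312 lower. These tests share the PKO-6 libraries, so they are not independent of each other. The genes apart by the widest margin over all 3 tests included *Esrp1* with 0, 1.07 and 1.03 normalized counts in PKO-1 and 4.84, 1.11 and 2.23 in rho0 against 466, 454 and 429 in PKO-6. It had at least 429 normalized counts in each PKO-6 library and at most 4.84 in any library of the other lines. The keratin *Krt20* had 121, 131 and 125 in PKO-6, *Gimap6*, a GTPase of lymphocytes, 99.1, 123 and 134, *Serpine2*, a protease inhibitor, 131, 138 and 143, and *Clstn3*, a synaptic protein, 203, 206 and 169.7, and in each of them every library of the other lines lay lower.

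Genes lost in PKO-6 but present in the other 3 lines gave the opposite picture. *Cyba*, which encodes the p22phox subunit of NADPH oxidase, had normalized counts of 791, 787 and 673 in TM6, 490.4, 473 and 487 in PKO-1, 286, 263 and 230.0 in rho0 and 1.64, 1.04 and 0 in PKO-6. *Rcn1* had 2471, 2288 and 2211 in PKO-1 and 716, 601 and 648 in rho0, and *Magohb*, a core factor of the exon junction complex, had 604, 822 and 799 in TM6, 194, 155 and 164 in PKO-1, 287, 311 and 297 in rho0 and 2.46, 1.04 and 3.88 in PKO-6. These 3 genes were thus at 0 to 8 normalized counts in PKO-6 and at 155 or more in every library of the other lines. *Scml2*, an X-linked Polycomb protein, had 219, 244 and 250.3 in TM6 and 0.819, 0 and 0 in PKO-6, and *Snrpn*, an imprinted gene that shares its transcript with *Snurf*, had 83, 95.5 and 93.7 and 0.819, 1.04 and 0. *Runx3* had at most 1.04 normalized counts in a PKO-6 library, against 55.9, 56.4 and 53.8 in PKO-1 and 195, 216 and 205 in rho0.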

How the data were processed

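Total RNA was depleted of ribosomal RNA, made into strand-specific libraries and sequenced in pairs by the authors, who merged technical duplicate libraries. Per the labels, the deposited gene table holds expected counts estimated with RSEM 1.2.25, and the deposited transcript tables hold TPM, which was summed per gene for markers. Expected counts were rounded, scaled by TMM and tested with edgeR 4.0.16 (quasi-likelihood, R 4.3.3) in a fit of 4 lines and 12 libraries, after filterByExpr with a minimum count of 10. Benjamini-Hochberg adjustment covered all 14026 genes. Standard errors are the absolute log2 fold change over the root of the F statistic. The test was tested on simulated data. Genes were named as the 12 highest and 12 lowest by fold change among non-overlapping genes averaging 100 normalized counts or more, the 6 in each direction most apart from all 3 other lines, and up to 4 list members per direction, and lists of at most 25 genes may give any member. Some genes that this rule names are not reported here. Members and lists were chosen with earlier results of these data known. Replicate numbers paired TM6 with PKO-6: deviations from the line means correlated at r of 0.250, 0.250 and 0.209, and each of the 6 libraries correlated best with its own number. For PKO-6 with rho0 r was -0.101, -0.379 and 0.232, and with PKO-1 it was -0.159, 0.178 and 0.122, so the numbers did not pair these lines throughout. With the replicate block 5776 genes were called in the fit of 4 lines and 5966 with the compared lines alone. Folds against 0 use a floor of 3 counts per library, which covers counting error only. Alternatives were DESeq2 1.42.0 (size factors, Wald test), no filter, the block, the compared lines alone, a log2 threshold of 1, *Rn45s* left out, chromosome medians subtracted and each library left out. Which of the extraction methods served which sample is not given in the sources used here.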

Additional observations from a re-analysis of the deposited data

Results flagged for a closer look

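Direct tests of PKO-6 against the other derived lines found differences in many genes. PKO-6 differed from PKO-1, made by the same deletion, in 4087 genes and from rho0 in 3014, and 1043 genes differed from TM6, PKO-1 and rho0 in the same direction. *Pnpt1* itself was higher in PKO-6 than in PKO-1, with a log2 fold change of 0.65. Among genes far higher in PKO-6 than in PKO-1, the fitted log2 fold change was 9.04 for *Esrp1* and 8.14 for *Serpine2*. It was 6.93 for *Clstn3* and 5.93 for *Gimap6*, and *Krt20* had a mean of 126 normalized counts in PKO-6 and 0 in PKO-1. PKO-1 libraries held at most 1.07 normalized counts of *Esrp1* and *Serpine2*, below the floor of 3 counts. They held at most 3.57 of *Clstn3* and 4.26 of *Gimap6*, near that floor. The size of these fold changes is therefore uncertain. Among genes far lower, the fitted log2 fold change was -9.79 for *Scml2*, -9.49 for *Rcn1* and -8.86 for *Snrpn*. It was -8.84 for *Cyba*, -6.04 for *Magohb* and -5.71 for *Runx3*. No PKO-6 library held more than 1 count of *Scml2*, *Snrpn* or *Runx3*, or more than 2 of *Cyba*. These counts lie below the floor of 3 per library, so the size of the fold change in these genes is uncertain. Each line holds 3 libraries, too few to call a single library far from the others. In PKO-6 the chi-squared per degree of freedom between libraries was 76.9 and 129 in the pairs with replicate 3. It was 23.6 between replicates 1 and 2, and in TM6 it ran from 18.3 to 37.4. These values include *Rn45s*, which took 17.78%, 19.15% and 12.2% of PKO-6 replicates 1, 2 and 3, and were not computed without it. The log2 levels of these 3 PKO-6 pairs correlated at 0.9946, 0.9913 and 0.9954.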

How the results depend on the processing

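With each library left out in turn, 5657 to 5962 genes were called against TM6 (2828 to 3102 higher, 2625 to 3021 lower), 3820 to 4178 against PKO-1, 2713 to 3399 against rho0 and 968 to 1044 against all 3 lines, and *Pnpt1* ran from -0.79 to -0.64. The threshold of 1 gave 3038 (1712 higher, 1326 lower) against TM6, 1950 (1399 and 551) against PKO-1, 1510 (1014 and 496) against rho0 and 578 against all 3, since fewer genes pass a higher threshold. No other setting moved these counts by over 1.5 times, and 0 of the genes called against TM6 were called in the opposite direction in any setting. With the replicate block, 5776 genes were called in the fit of 4 lines and 5966 with the compared lines alone, and in the fit of 4 lines it changed the call of *Tm7sf2* among the genes named here. With the compared lines alone *Tm7sf2* and *Ldha* were called with and without the block, and it changed no other call of a named gene in either fit, while *Fgf21*, *Reln* and *Snurf* were not tested with the compared lines alone. Signs turned in 9 genes that were not called and in *Hsd17b10*, which was called and went to 0.317 with chromosome medians subtracted, and the cause was not tested. The other values with chromosome medians subtracted were -0.139 for *Rn45s*, -0.149 for *Cd14*, 0.167 for *Dhodh*, -0.176 for *Hspd1*, -0.205 for *Hspe1* and -0.454 for *Twist1*. *Hspe1* was at -0.010 with DESeq2 size factors and with its Wald test, -0.024 with the compared lines alone, -0.023 there with the replicate block and -0.027 with *Rn45s* left out. *Trp53* was at -0.003 with the compared lines alone and the block and at -0.000 with *Rn45s* left out, and *Rn45s* at -0.011 with the compared lines alone and the block. With a library left out, the ranges were -0.064 to 0.025 for *Hspe1*, -0.072 to 0.128 for *Trp53*, -0.085 to 0.078 for *Hspd1*, -0.156 to 0.262 for *Rn45s*, -0.046 to 0.156 for *Twist1*, -0.009 to 0.127 for *Hoxd9* and -0.005 to 0.081 for *Supv3l1*. Of 42 list medians 7 changed sign in some setting, those of iron, hypoxia, *Hox* genes, growth factor receptors, mitochondrial proteases, X inactivation and pyrimidine synthesis. Subtracting chromosome medians changed fold changes and not p-values.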

Other observations

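Iron genes were divided, with 7 of 20 higher and 6 lower (65.0% called, against 41.3% of all genes) and a median log2 fold change of 0.01, or -0.05 without PKO-6 replicate 1 or 2 and 0.05 without PKO-6 replicate 3. *Slc40a1*, the iron exporter ferroportin, had 27.7, 25.8 and 27.9 normalized counts in TM6 and 288, 261 and 332 in PKO-6, and every PKO-6 library was higher, with a log2 fold change of 3.43 (edgeR adjusted p = 8.55e-10). *Slc25a37*, which carries iron into mitochondria, rose by 1.03, while the transferrin receptor *Tfrc* fell by 0.65. Of 21 genes of the hypoxia pathway 5 rose and 5 fell, with a median of 0.07, or -0.02 without TM6 replicate 1. In this list 47.6% were called, near the 41.3% of all genes tested. *Vegfa*, the angiogenic growth factor, had 2914, 2526 and 2774 in TM6 and 9489.8, 8097 and 10171 in PKO-6 and rose by 1.76 (edgeR adjusted p = 3.23e-10), whereas *Adm*, the vasodilator adrenomedullin, had 830.0, 895 and 987 and 79.4, 93.3 and 96 and fell by 3.34. Of 25 imprinted genes 6 rose and 8 fell (56.0% called), with a median of -0.11 that, with 1 library left out, ran from -0.38 without TM6 replicate 2 to -0.03 without TM6 replicate 1. *H19*, a maternally expressed noncoding RNA, had 499.8, 503 and 563 in TM6 and 38.5, 11.4 and 15.5 in PKO-6, lower throughout with a log2 fold change of -4.52 (edgeR adjusted p = 1e-09), and *Plagl1*, a zinc finger factor, rose by 1.34.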
